A study of Mus musculus with 15 samples.

Results

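The S100 proteins are small calcium-binding proteins. The members described here are the 10 genes S100A2, S100A4, S100A6, S100A8, S100A9, S100A11, S100A13, S100A14, S100A16 and S100P, chosen by symbol out of 25382 genes in the count table. All 10 were in the table, 9 had at least 1 count, and 8 had enough counts to be tested. S100A8 and S100A9 had too few reads. The table holds 15 libraries from primary tumours labelled as grown from MDA-MB-231 (GFP+ Luc+), a human line derived from triple-negative breast cancer, and the mouse strain is given as Nod/Skid. Neither the age of the mice nor the site of injection is stated in the labels. The cells had been divided by their adhesion under flow into a weakly adherent class, obtained with 10 dyn/cm2 of shear (6 libraries), a strongly adherent class with 50 dyn/cm2 (4 libraries) and an unsorted class without shear (5 libraries). No other treatment is labelled, so the cell line, its reporters and the host strain are shared by all 3 groups. Each title also carries a number (4, 5, 6, 7-8, 9 or 10), whose meaning the labels do not give, and libraries are named here by class and title number. The labels do not say that libraries came from separate animals, so p-values measure the spread between these libraries, which may in part be technical.

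An S100 protein holds a pair of EF-hand loops. On binding calcium it opens a groove that grips a partner protein, such as an annexin, a myosin heavy chain or ezrin. Most S100 genes lie side by side in a single cluster, within the epidermal differentiation complex, whereas S100P lies elsewhere. The family is known in breast tumours for S100A4, which binds non-muscle myosin and is a marker of motile mesenchymal cells, and for S100A8 and S100A9, whose products pair as calprotectin, a protein of neutrophils and of inflamed squamous epithelium. S100A2 and S100A14 are best known from basal and stratified epithelium.

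Total counts ran from 30372619 to 45434799 per library. Levels are given as CPM, counts scaled to the TMM-adjusted size of the library, which is a scale for comparing a gene between libraries and not for ranking genes, since no transcript lengths were used. The 10 members together took 0.401% to 0.702% of the counts of a library. Markers of the cell line were checked first. VIM and CD44 were present in every library (1143 to 7399 and 478 to 776 CPM), CDKN2A and CDKN2B had 0 counts in all 15, and ESR1 stayed at or under 0.234 CPM. The E-cadherin gene CDH1, usually low or absent in this line, had 53.1 to 549 CPM in the 12 libraries of title numbers other than 6, which goes against the label, and 0.267 to 5.56 CPM in number 6. EPCAM had 115 to 480 CPM in the 12 and 25.0 to 50.7 CPM in number 6. In these 12 the lung lineage gene NKX2-1 was also counted, at 6.19 to 58.1 CPM, against 0 to 0.399 CPM in the 3 libraries of number 6. Genes of striated muscle stood at a summed 2671 CPM in strongly adherent library 5, at 163 to 1018 CPM in the number 6 libraries, while the highest of the other 11 libraries had 13.7 CPM. The dissociated tumours were sequenced in bulk, so fewer cells of a type and less RNA per cell cannot be told apart for any gene below.

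S100A14 varied most among the tested members and was close to absent from title number 6. In that number it stood at 0.535 CPM in the strongly adherent, 0.407 CPM in the unsorted and 1.78 CPM in the weakly adherent library, from 20, 16 and 58 reads. In the other strongly adherent libraries it stood at 34.6 CPM (number 4), 48.1 CPM (number 5) and 12.3 CPM (number 9). The other unsorted libraries had 15.2 (number 4), 9.95 (number 5), 32.9 (number 7-8) and 7.89 CPM (number 9). The other weakly adherent libraries had 7.96 (number 4), 11.97 (number 5), 17.4 (number 7-8), 12.5 (number 9) and 16.8 CPM (number 10). The 3 libraries of number 6 thus lay below all 12 others, while the 3 adhesion classes overlapped. Strongly adherent libraries 4 and 5 and unsorted library 7-8 were the highest.

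S100A2, which encodes a nuclear S100 protein that binds p53, was low in 2 of the 3 libraries of number 6. It stood at 18.8 CPM in strongly adherent and 23.4 CPM in unsorted library 6, and at 65.2 CPM in weakly adherent library 6. The other strongly adherent libraries had 215 (number 4), 120 (number 5) and 74.3 CPM (number 9). The other unsorted libraries had 144 (number 4), 74.5 (number 5), 254 (number 7-8) and 50.4 CPM (number 9), and the other weakly adherent libraries 98.0 (number 4), 77.7 (number 5), 138 (number 7-8), 58.5 (number 9) and 124 CPM (number 10). Weakly adherent library 6 therefore lay inside the range of the other 12, and the other 2 of number 6 lay under it.

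S100A11, a partner of annexin A1, was also lowest in number 6, with a smaller spread. In number 6 it had 353 CPM in the strongly adherent, 352 CPM in the unsorted and 446 CPM in the weakly adherent library, whereas the other 12 ran from 462 to 774 CPM with a median of 573 CPM. No library of number 6 reached the lowest of the 12. S100P, which binds ezrin, was counted at low levels: 2.62, 0.229 and 0.952 CPM in the strongly adherent, unsorted and weakly adherent library of number 6, against 0.700 to 6.71 CPM with a median of 2.76 CPM in the other 12. These ranges overlapped, and the 98 reads of strongly adherent library 6 stood well above the 9 reads of unsorted library 6.

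S100A6, also called calcyclin, a partner of CACYBP and of annexins, had 2729, 2191 and 3307 CPM in number 6 in the same order of classes, and 2119 to 4453 CPM with a median of 3306 CPM in the other 12. The lowest value belonged to weakly adherent library 9, so number 6 did not stand apart. S100A4 had 753, 817 and 1030 CPM in number 6 in the same order of classes, and 521 to 1080 CPM with a median of 804 CPM in the others. Strongly adherent library 5 and weakly adherent library 9 were the lowest for S100A4. S100A13, which takes part in the unconventional secretion of FGF1, had 160, 175 and 187 CPM in number 6 and 110 to 181 CPM elsewhere, and S100A16 had 540, 620 and 641 CPM against 558 to 734 CPM. For these 4 genes the number 6 libraries overlapped with the rest.

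S100A8 had 0 counts in all 15 libraries, which allows at most 0.0631 to 0.1001 CPM per library at a limit of 3 counts. This limit covers counting error only. S100A9 had 20 reads in strongly adherent library 5 (0.421 CPM), 8 in unsorted library 7-8, 5 in weakly adherent library 10, 1 each in strongly adherent library 4, unsorted library 4 and weakly adherent library 7-8, and 0 in the other 9. Of the 18 myeloid markers, MPO, ELANE and TYROBP also had no read in any library, CSF3R and CXCR2 stayed at or under 0.124 CPM, and PTPRC at or under 1.83 CPM. The summed level of these 18 markers, most of it from CD68 and LAPTM5, was 158 to 257 CPM in strongly adherent, 173 to 213 CPM in unsorted and 160 to 368 CPM in weakly adherent libraries. In strongly adherent library 5, where S100A9 was highest, it was 160 CPM. The part of mouse host cells in these reads was not tested, as reads were counted on human genes.

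**Figure D1:**
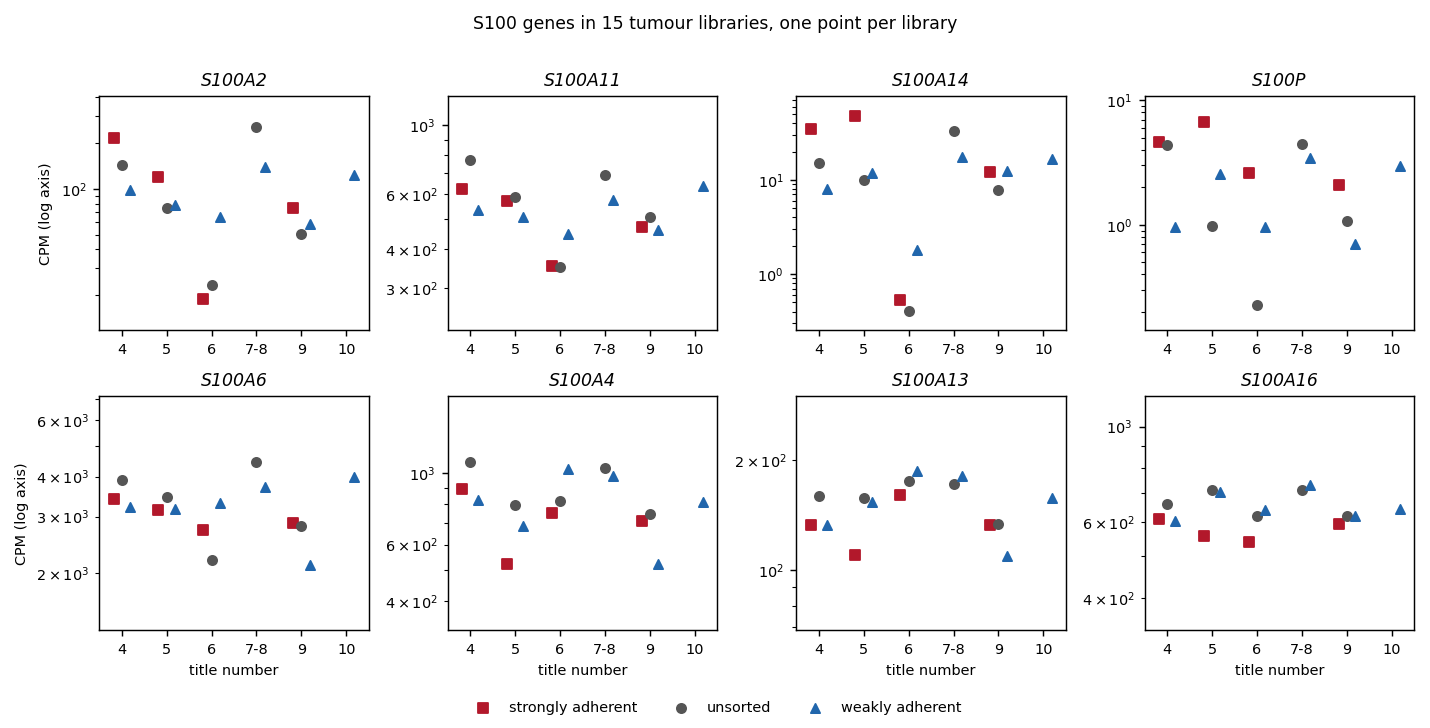
CPM of the 8 tested S100 genes (log axis, separate for each gene) against the title number, with 1 point per library and a colour and shape for each adhesion class. The 3 points of number 6 lie below all others for S100A14 (0.407 to 1.78 CPM against 7.89 to 48.1) and S100A11 (352 to 446 against 462 to 774), and their range overlaps that of the others for the other 6 genes.

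The comparison of each title number with the mean of the other numbers, with the adhesion class held in the model, asked how far these genes differ between sets of libraries of the same number. In number 6, S100A14, S100A11, S100A2 and S100P fell, and S100A4, S100A6, S100A13 and S100A16 did not pass. S100A14 had a log2 fold change of -4.34 ± 0.72 (SE), 20.2 times lower, with an edgeR adjusted p of 0.00329. S100A2 had -1.69 ± 0.45 (adjusted p = 0.0238) and S100A11 -0.61 ± 0.13 (adjusted p = 0.00493). S100P had -1.58 ± 0.55 at an adjusted p of 0.04997, on the edge of the threshold of 0.05. All p-values are from edgeR's quasi-likelihood test with Benjamini-Hochberg adjustment over the 15190 genes tested, and they are not adjusted over the 6 numbers compared. With number and class in the model, the spread behind them is that among libraries of the same number, not that between numbers. Number 6 is a single set of libraries, so they do not tell how unusual such a set is.

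The 4 calls among 8 tested members stand beside a large background, since 16.4% of all genes tested were called lower in number 6 and 11.6% higher, where no member was called higher. The members were picked with results of these libraries known, so their share says nothing particular about the family. Their median log2 fold change was -0.47, against 0.01 over all genes. The calls of S100A14 and S100A11 stood when any single library was left out (adjusted p of at most 0.0181 and 0.0383). S100A2 did not pass when strongly adherent library 6 (-1.24, adjusted p = 0.0581) or unsorted library 6 (-1.41, adjusted p = 0.1003) was left out, and without weakly adherent library 6 the value was -2.68. S100P lost its call without any 1 of 12 of the 15 libraries (adjusted p up to 0.173, without unsorted library 6) and under 4 of 7 other settings, with an adjusted p of 0.263 when the adhesion class was left out of the model. S100A6 passed without weakly adherent library 6 (-0.59, adjusted p = 0.0205).

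Markers of other cell types moved with number 6 as well. The summed level of 16 fibroblast, endothelial and adipocyte markers was 223 to 401 CPM there and 446 to 1353 CPM in the other 12 libraries, with 3 rising and 4 falling of 11 tested. The sum of the 18 myeloid markers was 213 to 368 CPM against 158 to 209 CPM, with 2 rising and 4 falling of 9 tested. The myeloid sum, most of it from CD68 and LAPTM5, was thus higher while the median log2 fold change of the tested markers was -0.77. It therefore does not give the direction of the list. Of all genes, 11.6% rose and 16.4% fell. Neither pair of ranges of the sums overlapped, and the part of these cells in the S100 values was not tested.

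The members that did not pass had intervals within 1 log2 unit of 0. S100A4 had a log2 fold change of 0.12 with a 95% interval from -0.19 to 0.44, S100A16 had -0.10 (-0.31 to 0.11), S100A6 had -0.33 (-0.67 to 0.01) and S100A13 0.25 (0.01 to 0.50, adjusted p = 0.111 by edgeR). VIM, a mesenchymal gene often set beside S100A4, rose with 0.99 ± 0.24 in the same comparison (adjusted p = 0.0108 by edgeR), whereas S100A4 had no call under any setting and changed sign without weakly adherent library 6 (-0.10).

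None of the 8 tested members passed in the other 5 numbers. By edgeR the share of all genes called was 0% for numbers 4, 5 and 10 (836, 1376 and 2175 genes at an unadjusted p under 0.05, and 27, 91 and 312 called by DESeq2), 0.0658% for number 7-8 and 0.0197% for number 9. In number 7-8, S100A14 and S100A2 had log2 fold changes of 1.82 ± 0.58 and 1.37 ± 0.45, with adjusted p of 0.592 and 0.632 by edgeR. The reference takes in number 6, where they averaged only 0.908 and 35.8 CPM. S100A14 averaged 25.2 CPM in number 7-8, and 19.2, 23.4, 10.9 and 16.8 CPM in numbers 4, 5, 9 and 10. Number 6 is also part of the reference for each of those numbers, and number 10 is 1 library. All 8 tested members had positive values in number 7-8 (median 0.33), 7 of 8 in number 10 (median 0.36) and none in number 9 (median -0.33), where S100P had -1.34 ± 0.54 (adjusted p = 0.466 by edgeR). A test for any difference among the 6 numbers, which singles out none of them, called S100A14 (adjusted p = 0.0481) and missed S100A11 (adjusted p = 0.0501), where 7.9% of all genes were called. The S100A14 call of that test was lost with DESeq2 size factors, with no filter and with no adhesion term, where S100A11 was called instead (adjusted p = 0.0372). With 1 library left out it stood in 4 of 15 cases, without weakly adherent library 4, 6 or 10 or strongly adherent library 5, and was lost in the other 11. S100A11 was called in the same 4 cases.

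**Figure D2:**
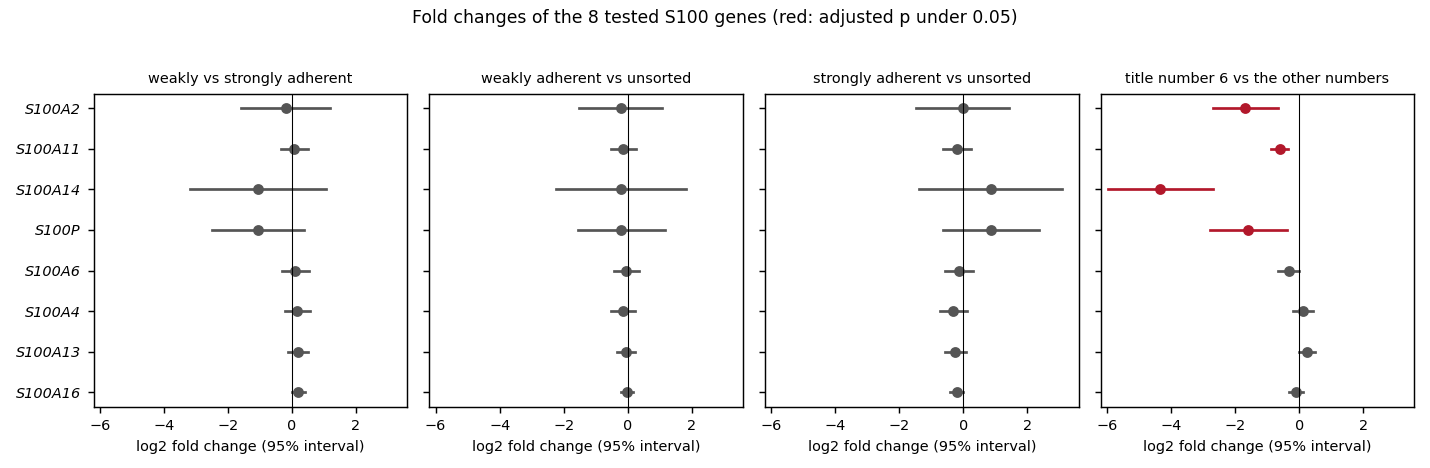
Log2 fold change (points) and 95% interval (lines) of the 8 tested S100 genes in the 3 comparisons of adhesion classes and in title number 6 against the mean of the other numbers, with red for an adjusted p under 0.05. S100A14, S100A2, S100A11 and S100P are red in number 6 only, where S100A14 stands at -4.34, and every interval of the class comparisons but that of S100A16 in strongly adherent against unsorted crosses 0.

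The comparison of adhesion classes asked whether tumours of weakly and strongly adherent cells differ in these genes. No member passed in any of the 3 comparisons, and no gene of the 15190 did (0% called in each). In weakly against strongly adherent tumours, S100A14 had a log2 fold change of -1.07 with a 95% interval from -3.19 to 1.06 and S100P -1.06 (-2.49 to 0.37), at 11.4 ± 5.84 against 23.9 ± 21.5 CPM and 1.93 ± 1.20 against 4.02 ± 2.11 CPM (SD, n = 6 and n = 4). S100A2 had -0.20 (-1.58 to 1.19). For these 3 genes the intervals leave room for changes of several times in size, so differences of that size are not excluded by these libraries. For the other 5 the intervals were narrower: S100A4 had 0.17 (-0.23 to 0.57), S100A6 0.10 (-0.32 to 0.52), S100A11 0.06 (-0.36 to 0.48), S100A13 0.19 (-0.11 to 0.50) and S100A16 0.19 (-0.0043 to 0.39). The median over the 8 was 0.08, against -0.02 over all genes. By edgeR, 366 of all genes and 0 of the 8 members had an unadjusted p under 0.05, and DESeq2 and limma-trend also called 0 genes. Without the number 6 libraries, which stand apart in the cell line markers, S100A14 had -1.25 and S100P -1.08. Without these and strongly adherent library 5 they had -0.81 and -0.66.

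Without the title number in the model, S100A16 in strongly adherent against unsorted tumours was the only member of the 3 comparisons with an unadjusted p under 0.05. S100A16, a widely expressed member, averaged 575 ± 31.9 CPM over the strongly adherent (SD, n = 4) and 665 ± 45.6 CPM over the unsorted libraries (SD, n = 5), a log2 fold change of -0.21 (-0.42 to -0.0041) with an edgeR p of 0.0461 and an adjusted p of 0.9748. The 4 strongly adherent libraries (540 to 609 CPM) lay under all 5 unsorted libraries (620 to 712 CPM). S100A14 and S100P had 0.85 (-1.38 to 3.08) and 0.87 (-0.63 to 2.36). S100A4 had -0.32 (-0.74 to 0.10) and S100A13 -0.25 (-0.57 to 0.07). Without number 6, S100A16, S100A14 and S100P had -0.21, 0.95 and 0.74. Without strongly adherent library 5 as well, they had -0.18, 0.51 and 0.32. Of all genes, 572 had an unadjusted p under 0.05, and DESeq2 and limma-trend called 0. With the title number as a block, edgeR called 0 and DESeq2 23 genes, none of them a member. In that edgeR fit S100A16 had -0.18 (unadjusted p = 0.108, adjusted p = 0.652) and S100P 1.47 (unadjusted p = 0.0165, adjusted p = 0.566).

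In weakly adherent against unsorted tumours the 8 log2 fold changes ran from -0.22 for S100A2 and S100A14 to -0.02 for S100A16, with a median of -0.15, and 81 of all genes had an unadjusted p under 0.05, with 0 called by DESeq2 or limma-trend. S100A2, S100A14 and S100P changed sign here in limma-trend (0.15, 0.39 and 0.21). The 3 comparisons share libraries, so their values are not independent of each other.

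Ratios between libraries of the same title number gave another view of the classes, as a description without a test, since 4 or 5 ratios are few. S100P was lower in the weakly than in the strongly adherent library of all 4 numbers that hold both, with ratios of 0.206 (number 4), 0.379 (number 5), 0.363 (number 6) and 0.335 (number 9). It was also higher in the strongly adherent than in the unsorted library in 4 of 4 numbers, by 1.07, 6.89, 11.4 and 1.93 times in numbers 4, 5, 6 and 9. With the number as a block, the log2 fold change of S100P in weakly against strongly adherent tumours was -1.64 ± 0.51 (SE) in edgeR (unadjusted p = 0.00752, adjusted p = 0.698) and -1.63 in DESeq2 (adjusted p = 0.140), so the order over the 4 numbers did not pass.

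S100A14 was higher in the strongly adherent than in the unsorted library in 4 of 4 numbers, by 2.28, 4.84, 1.31 and 1.56 times in numbers 4, 5, 6 and 9. The ratio in number 6 came from 20 against 16 reads, too few to tell the order of these libraries. The largest ratio came from strongly adherent library 5, the library with the high muscle markers and the highest sum of simple epithelial markers. The part of either in the ratio was not tested. Weakly against strongly adherent, S100A14 was lower in numbers 4 and 5 (0.230 and 0.249) and higher in number 6 (3.33, from 58 against 20 reads), with 1.02 in number 9. S100A4, S100A13 and S100A16 were lower in the strongly adherent than in the unsorted library of all 4 numbers, with the lowest ratios, 0.655, 0.702 and 0.783, in number 5. In number 9 their ratios were 0.951, 0.995 and 0.955, so these libraries were nearly equal. The share of all genes that keep the same order over the 4 numbers was not counted.

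**Figure D3:**
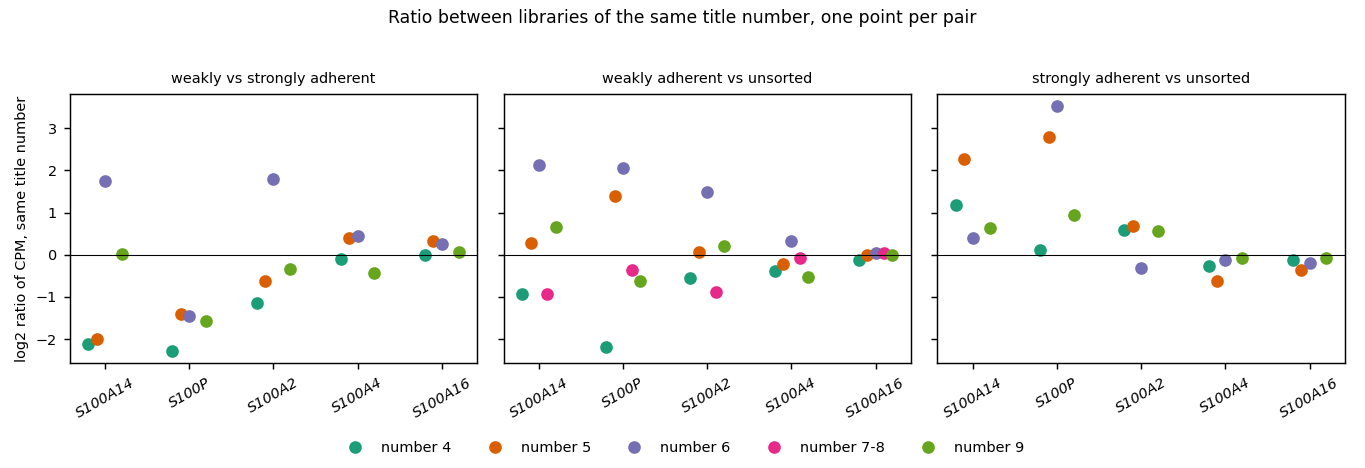
Log2 ratio of CPM between libraries of the same title number for 5 S100 genes in the 3 comparisons of adhesion classes, with 1 point per number. S100P lies below 0 in all 4 numbers for weakly against strongly adherent (ratios of 0.206 to 0.379), whereas S100A14 and S100A2 lie above 0 there in number 6 and below 0 in numbers 4 and 5.

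Among the 12 libraries outside number 6, the levels of some members went together. These values are Pearson's r of log2 CPM with two-sided permutation tests of 100000 resamples, adjusted over 36 relations, and libraries share title numbers, so they may not be independent. S100A14 went with S100P (r = 0.84, Spearman's rho = 0.85, permutation p = 0.00075 and 0.00101, adjusted 0.00900 and 0.00909) and with S100A2 (r = 0.75, rho = 0.73, permutation p = 0.00527 and 0.00864, adjusted 0.0173 and 0.0230). Leaving out the 2 libraries farthest from the median of S100A14 gave r = 0.77 with S100P, leaving out the 2 farthest from the median of S100A2 gave r = 0.64 between S100A2 and S100A14, and deviations from the mean of each title number gave 0.80 with S100P and 0.91 with S100A2 over 11 libraries. S100A13 went with S100A16 (r = 0.86, rho = 0.85, permutation p = 0.00035 and 0.00092, adjusted 0.00756, 0.91 without the 2 libraries farthest for S100A13 and 0.83 within numbers) and with S100A4 (r = 0.83, rho = 0.70, permutation p = 0.00105 and 0.0137, adjusted 0.00945, 0.56 without the 2 farthest for S100A4 and 0.93 within numbers). S100A6 went with S100A11 (r = 0.85, rho = 0.92, permutation p = 0.00042 and 9e-05, adjusted 0.00756, 0.84 without the 2 farthest for S100A6 and 0.69 within numbers). Between S100A14 and S100A4, S100A13 or S100A16, r was 0.01, -0.07 and -0.16 over the 12 libraries. These values were not stable, with 0.58, 0.36 and 0.52 without the 2 farthest libraries (for S100A4, S100A13 and S100A14) and -0.46, -0.65 and -0.69 within numbers. Of the 36 relations, 15 passed by Pearson's r and 14 by both measures. Links across the pairs above also passed, such as S100A2 with S100A6 and with S100A11 (r = 0.77 each, 0.28 and 0.42 within numbers). S100A6 with S100A13 was another (r = 0.79, 0.59 within numbers), so the members do not divide into separate sets. The share of relations that pass among other genes was not computed.

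The level of S100A14 was set beside a list of 21 simple epithelial markers, among them the keratins KRT7, KRT8, KRT18 and KRT19 and the E-cadherin gene CDH1. In number 6, 19 of the 21 fell and 2 did not pass (CLDN7 and MUC1), with a median log2 fold change of -2.97. Of all genes, 16.4% fell and 11.6% rose in that number. The summed level of the 21 markers was 2653 to 3342 CPM there and 4959 to 11657 CPM in the other 12 libraries. Over those 12, r between log2 CPM of S100A14 and the log2 sum was 0.76 (rho = 0.66, permutation p = 0.00381 and 0.0237, adjusted 0.0137 and 0.0534), so Spearman's rho did not pass. It was 0.46 without strongly adherent libraries 4 and 5, the 2 farthest from the median of S100A14, so the relation rests on them. Within numbers r was 0.83 over 11 libraries, which still include these 2. For S100P, S100A11 and S100A2 r with the sum was 0.70, 0.70 and 0.69, and all of these passed by both measures. Without the 2 libraries farthest for each gene, r was 0.67, 0.67 and 0.73. S100A4, S100A6, S100A13 and S100A16 did not pass. For S100A4 r with the sum was 0.17, with 0.68 without the 2 libraries farthest for S100A4 and -0.27 within numbers. In number 6, 11 of 12 tested squamous and basal markers fell as well (median -2.55), KRT5, KRT17 and TP63 among them, and KRT15 did not pass. Both lists were chosen with earlier results of these data known, so these counts are a description.

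**Figure D4:**
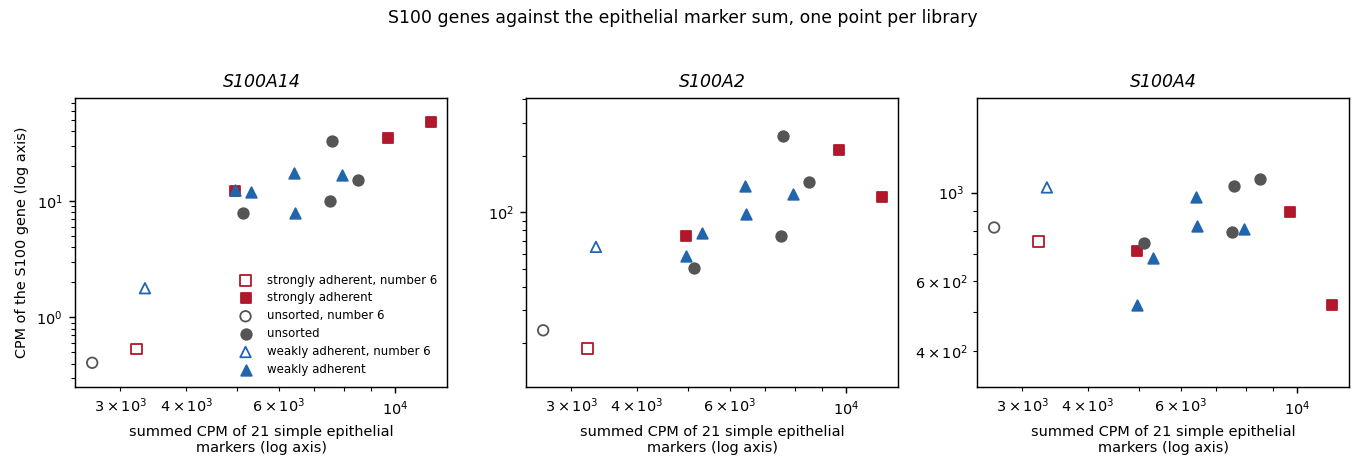
CPM of S100A14, S100A2 and S100A4 against the summed CPM of 21 simple epithelial markers (both log axes), with 1 point per library and open symbols for title number 6. For S100A14 the open points lie apart at 0.407 to 1.78 CPM and a sum of at most 3342 CPM, and the filled points run up to strongly adherent library 5 at 48.1 CPM, while S100A4 has r = 0.17 with the sum over the filled points and 0.68 without the 2 libraries farthest for S100A4.

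The genes whose level over all 15 libraries was most like that of S100A14 were C1orf116, MARVELD3 and FAM83B, at r = 0.99 each. By deviations from the mean of each number over 14 libraries they were PLEKHG6, C1orf116 and FAM83B, at r = 0.97 each. For S100A2 the genes were MMP28, GBP5 and PANX2 (r = 0.94, 0.93 and 0.92) and, within numbers, FXYD3, BMP3 and PLCH2 (r = 0.96, 0.96 and 0.95). For S100A13 they were ATP5J, COX5B and COX6C, nuclear genes of the respiratory chain and ATP synthase, at r = 0.96, 0.96 and 0.95. Within numbers they were HINT1, HINT2 and SNRPC (r = 0.98, 0.97 and 0.97), none of them such a gene. For S100A4 they were UQCRB, RPL8 and EEF1D, at r = 0.93, 0.90 and 0.89, and, within numbers, ATP5J, LAMTOR1 and NDUFB4 (r = 0.97, 0.96 and 0.96). These are the 3 highest values for each gene and are a description. The values over all 15 libraries include the gap between number 6 and the rest.

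The wider family was read from 11 further S100 genes. S100A3 rose in number 6 with a log2 fold change of 0.69 ± 0.15 (adjusted p = 0.00604 by edgeR), at 26.3 to 27.5 CPM against 10.0 to 23.0 CPM in the other 12, without overlap. S100A10, the constant partner of annexin A2, had -0.07 (-0.34 to 0.21), and S100A1 and S100A5 did not pass. S100A7A, S100A7L2 and S100A12 had no read, S100A7 had 1 read, and S100B, S100G and S100Z too few reads to test. None of the 4 tested genes passed between adhesion classes. Of the 7 fused-type genes of the same complex, which join S100 domains to long repeats, 3 were tested (FLG, HRNR and TCHH) and none passed in number 6 or between classes.

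Of 19 tested partners of the S100 proteins inside the cell, 4 rose and 2 fell in number 6, with a median log2 fold change of 0.10. Of all genes 11.6% rose and 16.4% fell, so 6 of 19 is near the share over all genes. MYH9, the non-muscle myosin heavy chain bound by S100A4, fell by 0.43 on the log2 scale, at 1091 to 1197 CPM against 1245 to 1806 CPM. ANXA2, the partner of S100A10, had -0.03 ± 0.11, ANXA5 -0.02 ± 0.11 and AHNAK 0.47 ± 0.18, and none of these passed. Of the 4 that rose, ANXA6, named here after its values were seen, had 1.09 ± 0.31 (adjusted p = 0.0274 by edgeR). None of the 19 passed between adhesion classes.

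Receptors and partners outside the cell held 13 tested genes, of which 1 rose and 3 fell in number 6, again near the 11.6% and 16.4% of all genes. AGER, the receptor RAGE that binds many S100 proteins, was counted at 2.74 to 6.80 CPM and had -0.10 ± 0.26, and TLR4, bound by S100A8 and S100A9, had 1.84 ± 0.71 (adjusted p = 0.0899 by edgeR). The syndecan gene SDC4 fell with -0.60 ± 0.18, as did ERBB3 and MCAM, and CD68 rose, these 3 named after their values were seen. The basigin gene BSG and ALCAM, with ANXA2 and SDC4 the most counted of the list, had -0.26 ± 0.20 and 0.20 ± 0.15. None of the 13 passed between adhesion classes.

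EF-hand calcium proteins outside the family gave 4 that rose and 1 that fell in number 6 among 20 tested, with a median log2 fold change of -0.02, against 11.6% that rose and 16.4% that fell over all genes. The calmodulin gene CALM2 and the calpain genes CAPN2 and CAPNS1, among the most counted of this list, had 0.29, -0.27 and -0.06, and none of these passed. Those that passed, named after their values were seen, were HPCAL1, PPP3R1, CHP1 and CIB1, which rose, and NCS1, which fell. No gene of this list passed between adhesion classes.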

How the data were processed

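Total RNA of the dissociated tumours was made into TruSeq stranded libraries and read from a single end over 50 bp, per the labels' protocols. The submitters' processing notes name STAR, HTSeq, DESeq2, FastQC and cutadapt, and the build hg19. Neither versions nor a strand setting for the counting could be taken from the sources used here. The authors deposited raw counts per human gene symbol and log2 values, each equal to log2 of the count divided by the DESeq2 size factor plus 1 (largest difference 5.15e-14 when recomputed). The labels give mouse as the organism while the symbols are human, so host reads may be among the counts.

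The deposited counts went into edgeR 4.0.16 under R 4.3.3 (TMM, filterByExpr by class, robust quasi-likelihood fit, two-sided, Benjamini-Hochberg over 15190 genes, threshold 0.05). The class comparisons had the class as the only term and the number comparisons had number and class. The SE of a log2 fold change is its size over the root of its F statistic. The biological coefficient of variation was 33.6%. Level likeness used log2 CPM with a prior count of 2. The fits were run on simulated counts with planted changes and no other differences between title numbers. This checks the code and not how well the fits suit these libraries. Alternatives were other scaling and filters, DESeq2 1.42.0, limma 3.58.1 (limma-trend) on the deposited log2 values and with a pseudocount of 8, the number as a block, and libraries left out. In strongly adherent against unsorted tumours all 4 same-numbered pairs deviated together (r from 0.28 to 0.75, the highest in number 6). Strongly adherent libraries 6 and 9 were closest to the unsorted library of their own number. Strongly adherent libraries 4 and 5 were closer to unsorted libraries 7-8 and 4, so a pairing by number is uncertain. The members, lists and settings were chosen with earlier results of these data known. Named genes are the 10 members, up to 4 genes of each list with the highest mean CPM, and the 3 genes most like each member. Other list genes named were chosen after their values were seen. The values of 1 list gene are not reported here.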

Additional observations from a re-analysis of the deposited data

Results flagged for a closer look

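Within an adhesion class, 2 of 24 sets of values had a library farther from the rest than Dixon's 95% limit, which chance passes in about 1 of 20 sets. S100A14 in weakly adherent library 6 stood at 1.78 CPM, below the next library of its class at 7.96 CPM. S100A6 in weakly adherent library 9 stood at 2119 CPM, below the next at 3160 CPM. Weakly adherent library 9 was also the lowest of its class for S100A4 (523 CPM), S100A13 (110 CPM), S100A2 (58.5 CPM) and S100P (0.700 CPM). It was not the lowest for S100A11, S100A14 or S100A16.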

How the results depend on the processing

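The labels share title numbers among the 3 classes, but not every number holds a library of all 3, so some blocks are incomplete. With the title number as a replicate block, edgeR called 0 genes in each comparison of classes, and DESeq2 called 30 for weakly against strongly adherent, 0 for weakly adherent against unsorted and 23 for strongly adherent against unsorted, with 0 members throughout. Over all 3 class comparisons same-numbered libraries deviated together in part (11 of 13 pairs above r = 0.1, and 8 of 13 closest to their own number).

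The sign of some class values that did not pass changed. In weakly against strongly adherent tumours, S100A2 had 0.20 and 0.19 in limma-trend with a pseudocount of 1 and 8, S100A4 -0.057 without number 6 and strongly adherent library 5, S100A6 -0.066 and -0.065 and S100A11 -0.025 and -0.025 with the block in edgeR and DESeq2, and S100A11 -0.022 without number 6. In weakly adherent against unsorted tumours, limma-trend gave S100A2 0.15 and 0.15, S100A14 0.39 and 0.31 and S100P 0.21 and 0.11, and the block gave S100A2 0.14 and 0.14 and S100A14 0.17 and 0.35. In strongly adherent against unsorted tumours S100A2 had 0.34 and 0.34 with the block, 0.064 without number 6 and 0.15 without number 6 and strongly adherent library 5. The cause was not tested.

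With 1 library left out, values ran from -0.54 to 0.40 for S100A2 and from -0.074 to 0.18 for S100A11 in weakly against strongly adherent tumours, and from -0.62 to 0.55 for S100A2 in strongly adherent against unsorted. In weakly adherent against unsorted they ran from -0.48 to 0.36 for S100A2, -0.17 to 0.076 for S100A6, -0.12 to 0.025 for S100A13, -0.53 to 0.45 for S100A14, -0.049 to 0.0100 for S100A16 and -0.49 to 0.23 for S100P. In number 6, S100A4 ran from -0.10 to 0.27, genes called from 1981 to 4231 and members called from 2 to 4.

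Genes called in the other numbers depended on the setting. Number 4 had 27 with DESeq2, 4 with no adhesion term and 0 to 10 with 1 library left out. Number 5 had 91 with DESeq2, 1 without number 6 and strongly adherent library 5, 1 with no adhesion term and 0 to 41 with 1 library left out. Number 7-8 had 18 with no filter, 4 with a filter at 1 CPM, 96 with DESeq2, 0 with limma-trend at either pseudocount, 0 with no adhesion term and 0 to 90 with 1 library left out, where members called ran from 0 to 1 (S100A2 without weakly adherent library 6, 1.51). Number 9 had 102 with DESeq2, 172 without number 6 and strongly adherent library 5, with 1 member called (S100A2, -1.26), and 0 to 15 with 1 library left out. Number 10, with 1 library, had 9 with no filter, 312 with DESeq2, 190 without number 6 and strongly adherent library 5 and 0 to 228 with 1 library left out. The test over all numbers called 0 members with DESeq2 size factors or no filter, S100A11 in place of S100A14 with no adhesion term, and 0 to 3 members with 1 library left out. The cause was not tested.

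S100A14 in number 6 rests on 16 to 58 reads per library. Reads of the mouse host that were counted on human genes were not tested.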
